A study of Mus musculus with 8 samples.

Results

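The genes described here encode the adrenergic receptors Adra1a, Adra1b, Adra1d, Adra2a, Adra2c and Adrb1 and the adenosine A1 receptor Adora1. They were chosen by name as 7 genes, of which 6 have values in the 14353 genes of the table, and all 6 were among the 14249 genes tested. Adra1d was not analysed here. Noradrenaline and adrenaline act through these adrenergic receptors, which sit in the cell membrane and couple to G proteins inside the cell. The alpha-1 receptors couple to Gq/11 and phospholipase C and usually raise excitability, the alpha-2 receptors couple to Gi/o and usually lower it, and the beta receptors couple to Gs and raise cyclic AMP. Adenosine, which forms outside cells from released ATP and accumulates during waking, acts on the A1 receptor through Gi/o to hold back transmitter release and to open inward rectifier potassium channels.

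Ribosome-bound mRNA was collected from the glutamatergic neurons of the mouse ventral pallidum (VP), a basal forebrain region of the reward circuit, by translating ribosome affinity purification (TRAP). All mice were vGluT2-Cre x RiboTag animals, homozygous for VGluT2-Cre and heterozygous for the Rpl22 allele, so that cells with a history of vGluT2 promoter activity carried a hemagglutinin tag on the ribosomal protein RPL22, and no drug or behavioural treatment is given in the labels. VP tissue was combined into 4 pools, and each pool gave 1 TRAP library, labelled as glutamatergic neurons, and 1 INPUT library, labelled as all neurons and glia. VP1.6 held 7 mice of 9 to 12 weeks, while VP2.2, VP2.6 and VP2.11 held 10, 11 and 10 mice of 10 to 16 weeks, with males and females in each pool. INPUT RNA was drawn from the lysate ahead of the beads according to one passage of the methods, and another passage names an unbound fraction as the material sent for sequencing. The methods also warn that punches may have included neighbouring striatum or nucleus accumbens. They hold that these areas lack vGluT2 and so would not add to TRAP. Markers of striatal medium spiny neurons were measured in both fractions, and their summed levels are given beside Adra2c. Both fractions came from the same mice and carry the same alleles. The comparison asks which receptor mRNAs were relatively more or less abundant on ribosomes of vGluT2-Cre cells than in INPUT. By its label INPUT holds all neurons and glia, the vGluT2 cells among them. As the mRNA is measured in bulk, fewer cells expressing a gene and less mRNA per cell cannot be told apart.

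The values are log2 CPM, the read count of a gene scaled to the size of its library, on a log2 scale on which a difference of 1 is a 2-fold change. Slc17a6, which encodes vGluT2, was measured at 143 ± 13.6 CPM in TRAP and 25.9 ± 10.3 CPM in INPUT (mean ± SD, n = 4 libraries each), so TRAP exceeded INPUT by 2.55 on the log2 scale (limma, adjusted p = 8.8e-05 without the pool and 7.3e-06 with it as a block). All 4 glutamatergic markers (Slc17a6, Slc17a7, Neurod1, Tbr1) were higher in TRAP, with a summed level of 263 to 369 CPM against 41.1 to 87.8 CPM. The summed level of the 6 microglia markers was 23.8 to 32.2 CPM in TRAP and 82.2 to 130 CPM in INPUT, that of the 6 oligodendrocyte markers 940 to 1710 against 3840 to 4290 CPM, and that of the 7 astrocyte markers 1430 to 1870 against 1790 to 2090 CPM. Among the oligodendrocyte markers Mag alone went the other way (0.61), called higher without the block alone (limma adjusted p = 0.035 and 0.072). Most of the astrocyte sum was Aldoc, which was not called, whereas Gja1 (-2.14), Gfap (-1.65), Slc1a3 (-1.12) and Aqp4 (-1.10) were lower in TRAP in both fits. The GABAergic markers Gad1, Gad2 and Slc32a1 summed to 918 to 1570 CPM in TRAP and 584 to 1390 CPM in INPUT, and of the 3 only Slc32a1 passed the test, as lower in TRAP. Summed levels of the cholinergic markers were 87.8 to 137 CPM in TRAP and 39.4 to 84.1 CPM in INPUT. Of these, Slc18a3 was lower in TRAP in both fits (-1.75), Chat was higher without the block alone (0.7) and Slc5a7 was not called (0.81). The oligodendrocyte precursor markers summed to 26.5 to 47.4 and 23.2 to 38.1 CPM (with Cspg4 called higher at 1.98 and Gpr17 lower at -1.01). Those of endothelial cells and pericytes summed to 33.8 to 61.5 and 36.6 to 48.1 CPM, with Flt1 called higher in both fits (2.37) and the others not called. Markers of other cells were therefore present in every TRAP library, and their part in the receptor values was not tested. Effective library sizes could be worked out for VP2.2, at about 13 M reads (TRAP) and 39.5 M reads (INPUT), and for VP2.6, at about 12.7 M and 25.2 M reads, whereas rounding of the values left the depth of VP1.6 and VP2.11 unknown.

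Among the receptor genes, Adra1a was higher in TRAP, Adra2c was lower, and Adra1b, Adra2a, Adrb1 and Adora1 did not pass the test. A gene was called at an adjusted p under 0.05 over all genes tested, once with the fraction alone and once with the pool added as a block, and these 2 calls were the same in both fits. Libraries of a pool deviated in opposite directions, which makes the SE and p of the fit without the block too small on average, so the blocked values stand beside them. For comparison, 23.2% of all genes were called higher and 24.8% lower without the block, and 15.4% and 16.8% with it. One member called in each direction of 6 is near that background. Their median change was 0.15 on the log2 scale, beside -0.05 over all genes tested. Every TRAP library was above every INPUT library for Adra1a and Adra1b, a pattern held by 23.3% of all genes, and below every INPUT library for Adra2c, as for 24.4% of all genes. The p-values with the block measure the spread of TRAP minus INPUT between pools, each of which is a separate set of mice. Those without the block measure the spread of the deposited levels within a fraction. These levels can carry a shift shared by both libraries of a pool.

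**Figure D1:**
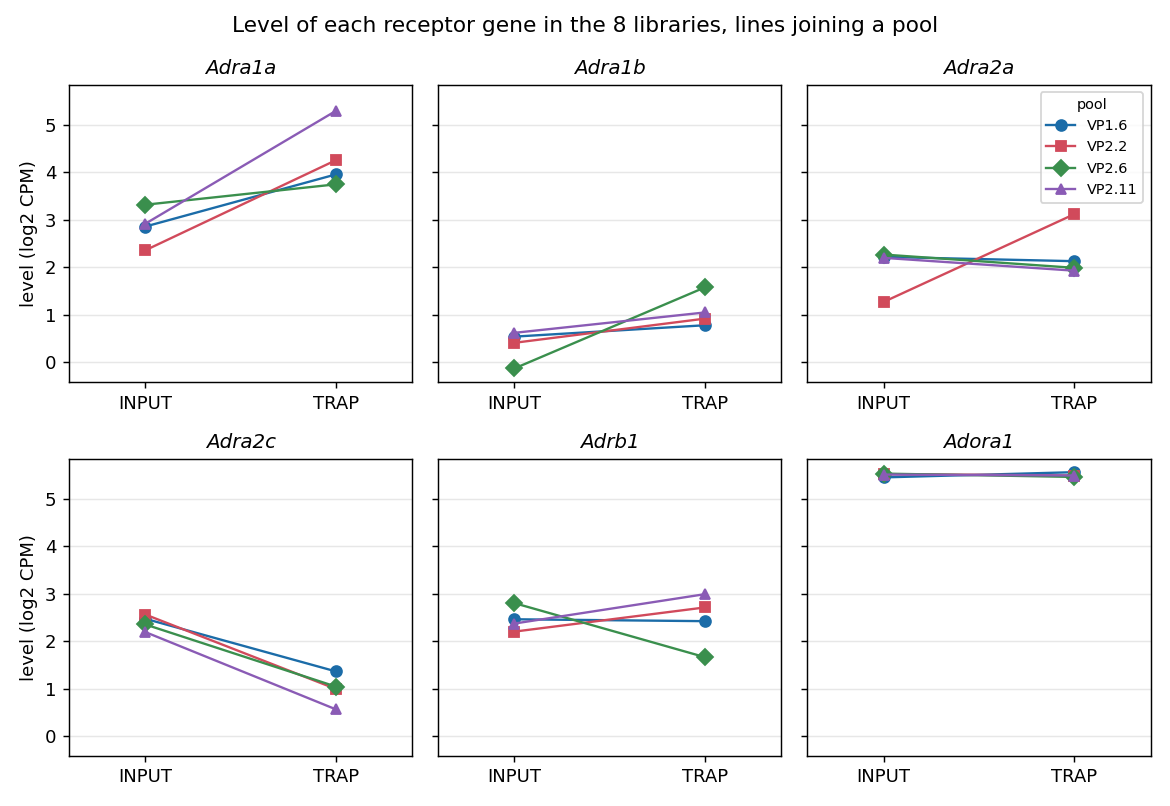
Level of each receptor gene in log2 CPM (vertical axis) in INPUT and TRAP, with each line joining the 2 libraries of 1 pool. The 4 lines of Adra1a rise and the 4 lines of Adra2c fall, those of Adora1 lie on top of each other between 5.45 and 5.56, and in Adra2a the VP2.2 line alone rises.

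Adra1a encodes the alpha-1A receptor, which activates phospholipase C through Gq/11 when noradrenaline binds, and the gene spans chr14:66635251-66771168 on the plus strand (GRCm38, GENCODE M21), with 6 annotated transcripts. Its level in TRAP was 3.96 log2 CPM in VP1.6, 4.26 in VP2.2, 3.75 in VP2.6 and 5.30 in VP2.11. In INPUT it was 2.86, 2.36, 3.32 and 2.92 log2 CPM in the same order. TRAP exceeded INPUT in all 4 pools and the fractions did not overlap, but the size of the gap differed widely, from 0.43 in VP2.6 to 1.10 in VP1.6, 1.90 in VP2.2 and 2.38 in VP2.11. The mean was 21.9 ± 11.9 CPM in TRAP and 7.5 ± 2.00 CPM in INPUT (n = 4), with the highest TRAP library, VP2.11, at 39.4 CPM. The log2 fold change was 1.45 (2.74-fold, SE 0.33), with a 95% interval of 0.73 to 2.18 without the block (adjusted p = 0.0047) and 0.75 to 2.16 with it (adjusted p = 0.0042). An exact permutation test of the 8 values, which leaves the pairing by pool aside, gave p = 0.0286, the smallest that 4 against 4 allows, and an exact sign flip over 4 pools cannot go below 0.125. Adra1a was called under all 19 alternative settings, with log2 fold changes from 0.86 with library weights to 1.79 without VP2.6. With 338 TRAP and 273 INPUT reads in VP2.2, the 95% exact interval of the difference was 1.67 to 2.14, which covers counting error only. In VP2.6 the interval was 0.15 to 0.71. In both pools the values fix the ratio of reads but not their number, and the read numbers nearest the deposited level were used. For the pull-down marker Slc17a6 the fractions differed by 2.78 in VP1.6, 3.17 in VP2.2, 2.40 in VP2.6 and 1.84 in VP2.11. Its log2 CPM ran from 7.02 to 7.34 in TRAP (SD 0.13) and from 3.85 to 5.3 in INPUT (SD 0.6). It thus varied more between pools in INPUT than in TRAP. Whether the gap of Adra1a goes with that of Slc17a6 was not tested.

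Adra1b encodes the alpha-1B receptor, the second Gq/11-coupled receptor of the set (chr11:43774606-43901210, minus strand). Its TRAP levels were 0.78, 0.92, 1.58 and 1.05 log2 CPM across the pools, in the order given for Adra1a. Its INPUT levels were 0.54, 0.41, -0.13 and 0.62 log2 CPM. All TRAP values were above all INPUT values, by 0.24 to 0.51 in 3 pools and by 1.71 in VP2.6. The log2 fold change of 0.72 was not past the threshold, with an interval of -0.01 to 1.45 and an adjusted p of 0.094 without the block, and of -0.47 to 1.92 and 0.35 with it. The exact permutation p of 0.0286 is the value that any gene without overlap takes in this design. The call depended on the fit, since limma gave an adjusted p of 0.016 with library weights (log2 fold change 1.00), 0.008 after quantile normalization (1.43) and 0.032 without the variance trend (0.72). The mean level was 2.17 ± 0.568 CPM in TRAP and 1.31 ± 0.278 CPM in INPUT (n = 4), and few reads stood behind it. In VP2.6 30 TRAP and 18 INPUT reads gave a counting interval of 0.84 to 2.66, and in VP2.2 29 and 62 reads gave -0.19 to 1.16.

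Adra2c encodes the alpha-2C receptor, a Gi/o-coupled receptor known for its high level in the striatum, and is a single exon gene at chr5:35278319-35281763 (plus strand). Its TRAP levels were 1.36 log2 CPM in VP1.6, 0.99 in VP2.2, 1.04 in VP2.6 and 0.56 in VP2.11. Its INPUT levels were 2.47, 2.56, 2.35 and 2.19 log2 CPM. Every TRAP library lay below every INPUT library, and the gap was alike among pools, at -1.11, -1.56, -1.31 and -1.63. The mean fell from 5.28 ± 0.572 CPM in INPUT to 2.02 ± 0.446 CPM in TRAP (n = 4). The log2 fold change was -1.41 (2.65-fold lower), with an interval of -1.96 to -0.85 and an adjusted p of 0.0013 without the block, and of -2.28 to -0.53 and 0.017 with it. With the pool as a block, the call was lost without VP2.2 (-1.35, adjusted p = 0.053) and without VP2.6 (-1.44, adjusted p = 0.064), and the adjusted p was 0.05 without VP1.6 (-1.50). Counting intervals of the difference were -2.12 to -1.09 in VP2.2 (37 TRAP and 335 INPUT reads) and -2.22 to -0.56 in VP2.6 (16 and 81 reads). They use the read numbers nearest the deposited level, since the values fix only the ratio of reads. Markers of striatal medium spiny neurons moved in the same direction, with 5 of 6 lower in TRAP in both fits (Drd1, Drd2, Ppp1r1b, Penk and Tac1, but not Rgs9) and a summed level of 464 to 714 CPM in TRAP against 1140 to 1730 CPM in INPUT. Their part in the Adra2c difference was not tested.

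Adra2a encodes the alpha-2A receptor, the main autoreceptor of noradrenaline neurons and a common receptor on their targets (chr19:54044151-54048982, plus strand, single exon). Its TRAP levels were 2.13, 3.12, 1.99 and 1.93 log2 CPM across the pools, in the order given for Adra1a. In INPUT they were 2.22, 1.27, 2.27 and 2.2 log2 CPM. VP2.2 had both the highest TRAP and the lowest INPUT value, so its gap was 1.84, while TRAP was slightly below INPUT in the other 3 pools (-0.09, -0.28 and -0.27). The gap in VP2.2 was larger than counting error, with 165 TRAP and 139 INPUT reads and an interval of 1.52 to 2.19. Over all pools the log2 fold change was 0.30, with an interval of -0.44 to 1.04 and an adjusted p of 0.48 without the block, and of -0.62 to 1.22 and 0.62 with it. It was -0.21 without VP2.2. Mean levels were 5.21 ± 2.33 CPM in TRAP and 4.12 ± 1.14 CPM in INPUT (n = 4).

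Adrb1 encodes the beta-1 receptor, which raises cyclic AMP through Gs (chr19:56722199-56733113, plus strand). Its TRAP levels were 2.42, 2.71, 1.66 and 2.99 log2 CPM across the pools, in the order given for Adra1a. Its INPUT levels were 2.46, 2.2, 2.80 and 2.37 log2 CPM. The fractions overlapped and the pools moved in both directions, with TRAP above INPUT by 0.51 in VP2.2 and 0.62 in VP2.11, and below it by 0.04 in VP1.6 and 1.14 in VP2.6 (differences of -0.04 and -1.14). The counting interval was 0.22 to 0.79 in VP2.2 and -1.65 to -0.68 in VP2.6. Both use reads scaled to the deposited level, since the values fix only their ratio. The log2 fold change was -0.01, with an interval of -0.66 to 0.63 and an adjusted p of 0.97 without the block, and of -0.83 to 0.80 and 0.98 with it. Without VP2.6 it was 0.36. Mean levels were 5.74 ± 2.02 CPM in TRAP and 5.56 ± 1.02 CPM in INPUT (n = 4).

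Adora1, the adenosine A1 receptor gene (chr1:134199223-134235431, minus strand), was the most abundant of the 6 receptor mRNAs, and its deposited level varied least. It was at 5.56, 5.49, 5.46 and 5.49 log2 CPM in TRAP across the pools, in the same order. In INPUT it was at 5.45, 5.52, 5.53 and 5.51 log2 CPM. The pool differences of 0.11, -0.03, -0.07 and -0.02 lay on both sides of 0, and the means were 45.3 ± 1.33 and 45.4 ± 1.18 CPM (n = 4). The spread between pools is that of the deposited values, which differed from the level the reads give by -0.03 in VP2.2 and -0.26 in VP2.6 on the log2 scale in both fractions. The mean difference was -0.003 (limma adjusted p = 0.98, and 0.99 with the block), and its interval reached from -0.25 to 0.24 without the block and from -0.46 to 0.45 with it. A difference of the size seen for Adra1a or Adra2c lies outside both intervals. Adora1 shares 20.1% of its exon bases with Mybph on the other strand, and whether reads were counted by strand is not given in the sources used here. With 597 TRAP and 1849 INPUT reads in VP2.2 and 673 and 1404 in VP2.6, the counting intervals of the difference were -0.17 to 0.10 and -0.21 to 0.06.

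**Figure D2:**
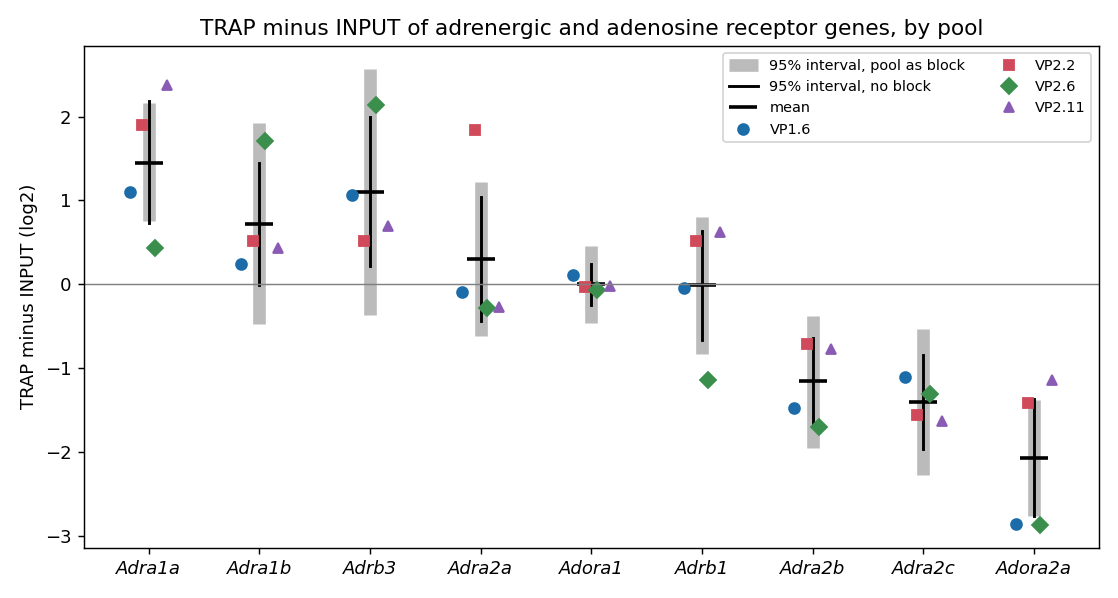
TRAP minus INPUT (log2) of each receptor gene in the 4 pools (coloured symbols), with the mean (horizontal bar) and its 95% interval without the block (black line) and with the pool as a block (grey bar). Both intervals of Adra1a lie above 0 and both of Adra2c, Adra2b and Adora2a below it, while Adra2a and Adrb1 have pools on either side.

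The receptor genes were then compared with each other in the size of their change, pool by pool, over all 15 pairs. The change of Adra1a exceeded that of Adra2c in 4 of 4 pools, by 2.86 on average (1.74 to 4.01). Within the alpha-2 pair, the change of Adra2a exceeded that of Adra2c in 4 of 4 pools by 1.71 (1.02 to 3.41), and Adra2c was below Adora1, the other Gi/o-coupled receptor, in all 4 (mean gap -1.40 ± 0.20). Adra1a exceeded the alpha-1 partner Adra1b by 0.73, but with pools between -1.28 and 1.95. The steadiest gap among pairs with Adra1a was to Adrb1, at 1.47 ± 0.26 (1.14 to 1.76), although each gene alone varied by more. An exact sign-flip test over 4 pools cannot give a p under 0.125 (0.208 after Benjamini-Hochberg adjustment over the 15 pairs), so no pair could pass a threshold of 0.05.

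Levels of different genes were compared per kilobase of exon, since longer mRNAs give more reads. A level in a single library can carry a shift shared by both libraries of its pool, and the deposited values differed from those the reads give by -0.03 for Adora1 and -0.81 for Adrb1 in VP2.2, and by -0.26 for Adora1, 0.32 for Adra1b and 0.66 for Adra2c in VP2.6 (log2 scale), while TRAP minus INPUT is not touched by it. The sizes of these shifts rest on read numbers chosen nearest the deposited level. In TRAP the order was Adora1 at 7.83 ± 0.23 CPM per kilobase, Adra1a at 2.51 ± 1.36, Adrb1 at 1.70 ± 0.599, Adra2a at 1.08 ± 0.481, Adra1b at 0.642 ± 0.168 and Adra2c at 0.586 ± 0.129 (n = 4). Adora1 was above 67.0% of all genes tested on this scale, Adra1a above 40.5% and Adra2c above 12.5%. Adora1 was above Adra1a in every TRAP library by 1.78 ± 0.69 on the log2 scale of length-scaled level. The steps from Adra1a to Adrb1 (0.51 ± 0.39) and from Adrb1 to Adra2a (0.67 ± 0.68) had the same sign in all 4 libraries but were about as large as their SD, and Adra2a and Adra1b (3 of 4 libraries) and Adra1b and Adra2c (2 of 4) were not separated.

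The order in INPUT was different below Adora1. Adora1 was at 7.85 ± 0.203 CPM per kilobase, followed by Adrb1 at 1.64 ± 0.301, Adra2c at 1.53 ± 0.166, Adra1a at 0.859 ± 0.229, Adra2a at 0.853 ± 0.236 and Adra1b at 0.388 ± 0.0823 (n = 4). Adrb1 and Adra2c were not separated (0.09 ± 0.34 on the log2 scale, 3 of 4 libraries), nor were Adra1a and Adra2a (0.02 ± 0.23, 2 of 4), while Adra2c was above Adra1a in 4 of 4 libraries. Adra2c thus stood next to Adrb1 in INPUT and with Adra1b at the low end in TRAP, whereas Adra1a was level with Adra2a in INPUT and second in TRAP. The place of Adra1a in INPUT depends on the length used, since its exons cover 8728 bases and its longest transcript 4282. With longest transcripts it was at 1.75 in INPUT, between Adrb1 at 1.88 and Adra2c at 1.53. Adra2a was then at 0.853, so Adra1a was no longer level with it, nor below Adra2c. In TRAP Adra1a was at 5.12 and stayed second, between Adora1 at 9.12 and Adrb1 at 1.95.

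**Figure D3:**
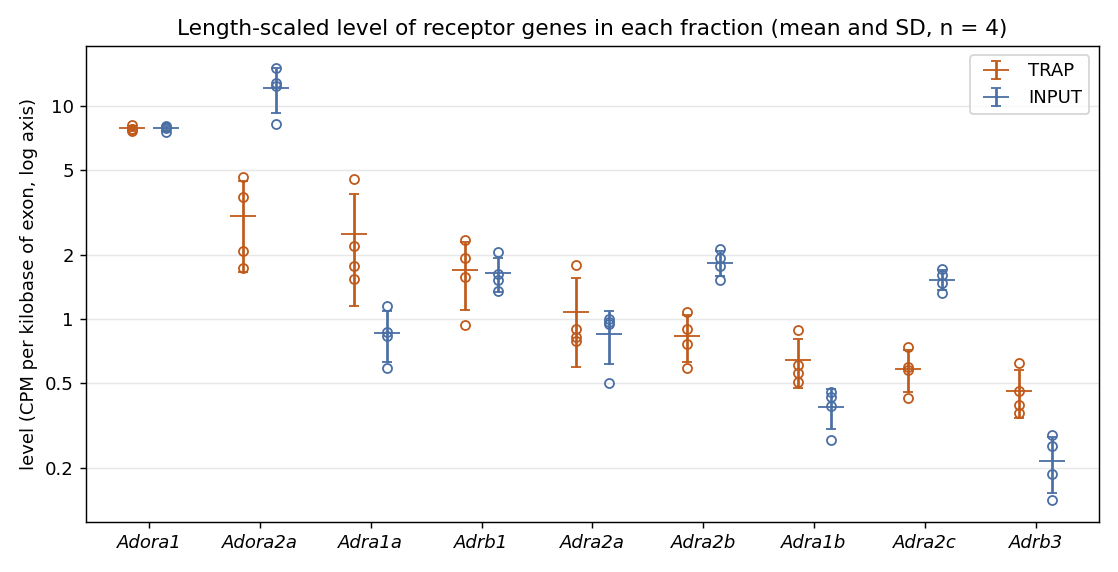
Level in CPM per kilobase of exon (log axis) of the 6 receptor genes and of Adora2a, Adra2b and Adrb3, with 1 open circle per library and the mean and SD of the 4 TRAP (orange) and 4 INPUT (blue) libraries. Adora1 is at the same height in both fractions, 7.83 and 7.85, while Adora2a is above it in INPUT at 12.1 and below it in TRAP at 3.05.

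The remaining receptors for the same ligands were read from the same fit. Adora2a encodes the Gs/olf-coupled adenosine A2a receptor, which is known for its high level in striatal medium spiny neurons that project to the pallidum. It was at 9.33 ± 4.22 CPM in TRAP and 37.1 ± 8.77 CPM in INPUT, and the change of -2.07 (log2) ran from -2.87 to -1.14 over the pools (limma adjusted p = 6.0e-04, and 3.7e-04 with the block). The medium spiny neuron markers given beside Adra2c moved with Adora2a as well, and their part in its difference was not tested. Adra2b, the third alpha-2 receptor gene, was lower in TRAP at 3.35 ± 0.83 against 7.37 ± 1.00 CPM, a log2 fold change of -1.16 with pools from -1.70 to -0.71 (adjusted p = 0.0028 and 0.025). Its call with the block was lost without VP1.6 (-1.06) and without VP2.6 (-0.99). Adrb3, the beta-3 receptor gene, had a log2 fold change of 1.10 but few counts, at 1.55 ± 0.394 against 0.733 ± 0.218 CPM, and was called without the block alone (adjusted p = 0.042, against 0.24 with it). It shares 24.9% of its exon bases with Gm45470 on the other strand. Adora2b and Adora3 were not analysed here. Of the 2 adenosine receptor genes with values, Adora1 had pool differences between -0.07 and 0.11 and Adora2a between -2.87 and -1.14, and the gap between these changes was not tested.

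Genes that supply or remove the ligands were read from the same fits. Of 7 tested genes of noradrenaline synthesis, transport and breakdown, 2 were higher and 1 was lower without the block, and 1 and 1 with it. These counts are near the shares over all genes, 23.2% higher and 24.8% lower without the block, and 15.4% and 16.8% with it. Maob, the monoamine oxidase that breaks down several amines, was higher in TRAP, at 67.4 ± 10.8 against 35.5 ± 6.05 CPM (log2 fold change 0.93, adjusted p = 0.0015 and 0.007). Ddc, which makes dopamine from L-DOPA, was lower, at 16.4 ± 2.66 against 32 ± 3.5 CPM (-0.98, adjusted p = 0.001 and 0.0084), and its call with the block was lost without VP2.6 (-0.82). Maoa, the monoamine oxidase with a preference for noradrenaline and serotonin, had a log2 fold change of 0.50 and was called without the block alone (0.025 and 0.11). Dbh, which makes noradrenaline, and the noradrenaline transporter gene Slc6a2 were not analysed here.

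Of 9 genes of adenosine formation, uptake and breakdown, 1 was higher and 1 lower without the block, and only the lower one, Entpd1, was called with it. Over all genes, 23.2% were higher and 24.8% lower without the block, and 15.4% and 16.8% with it. Entpd1, which encodes the ATP-degrading ectoenzyme CD39, was at 2.32 ± 1.90 CPM in TRAP and 6.31 ± 1.68 CPM in INPUT (log2 fold change -1.72, adjusted p = 0.012 and 0.019). Its pools ranged from -3.19 to 0.17, and the call was lost in both fits without VP1.6 (-1.22) or without VP2.2 (-1.62), and in the fraction-only fit without VP2.6 (-1.68). For Entpd3, a neuronal member of the family, the change was 0.53 (adjusted p = 0.045 and 0.16). Adk, the kinase that clears adenosine, was at 166 ± 15.7 and 172 ± 12.1 CPM and was not called. CD39 is a known microglial enzyme, and the 6 microglia markers were all lower in TRAP without the block (4 of 6 with it). Their part in the Entpd1 difference was not tested.

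**Figure D4:**
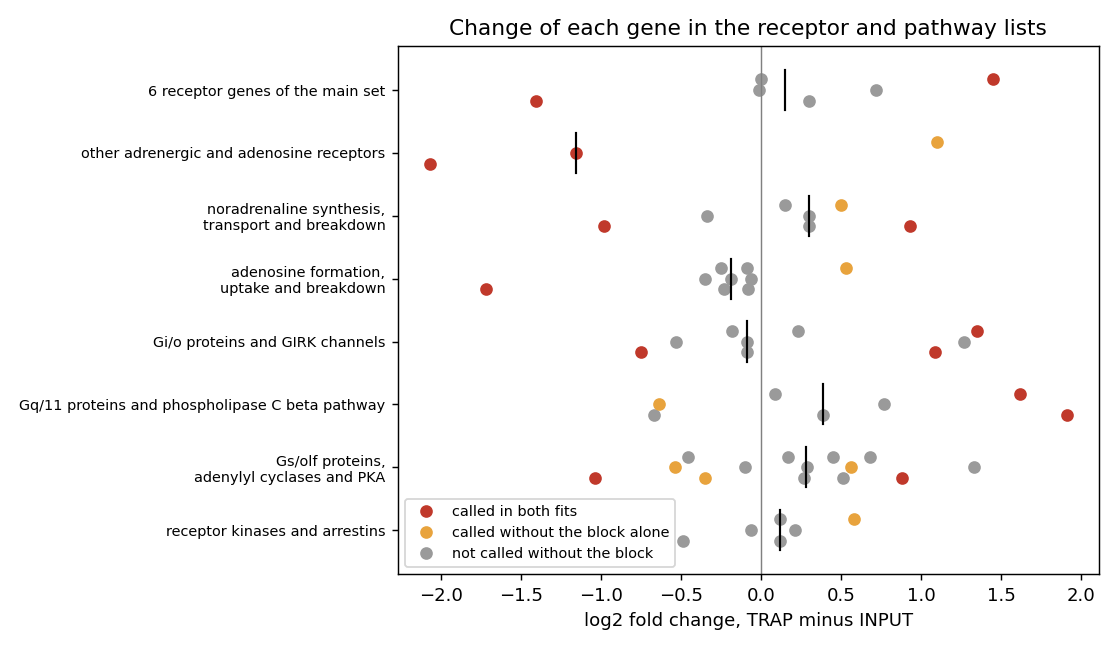
Log2 fold change (TRAP minus INPUT, horizontal axis) of each tested gene in the 6 receptor genes and the 7 lists of related genes, coloured by the call, with the median of each list as a black line. The genes called in both fits lie on both sides of 0 in the 6 receptor genes and in the noradrenaline, Gi/o and Gs/olf lists. They lie only below 0 in the other receptors and the adenosine list and only above 0 in the Gq/11 list. The receptor kinases and arrestins have none. Plcb4 (1.91) and Plcb1 (1.62) are the highest of the Gq/11 list.

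The Gq/11 pathway, used by the alpha-1 receptors, had 2 of 7 tested genes higher in TRAP in both fits, a count near the share of all genes called higher (23.2% without and 15.4% with the block). These were the phospholipase C beta genes Plcb4, at 223 ± 8.25 against 62.2 ± 19.7 CPM (log2 fold change 1.91, adjusted p = 2.0e-04 and 8.5e-05), and Plcb1, at 487 ± 30.0 against 164 ± 45.3 CPM (1.62, adjusted p = 2.6e-04 and 2.4e-04). TRAP was higher by more than 1 in all 4 pools for both genes. The G protein gene Gnaq was at 486 ± 73.8 and 456 ± 76.1 CPM and was not called, and Gna11 was lower without the block alone (-0.64, adjusted p = 0.021 and 0.057).

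Gi/o proteins and the GIRK potassium channels they open serve the alpha-2 and A1 receptors. Of the 9 genes of this list, 2 were higher and 1 lower in both fits. That is near the shares over all genes, 23.2% higher and 24.8% lower without the block, and 15.4% and 16.8% with it. The channel subunit genes Kcnj9 (18.6 ± 1.19 against 7.5 ± 2.04 CPM, log2 fold change 1.35, adjusted p = 5.6e-04 and 0.0025) and Kcnj3 (40.3 ± 5.28 against 19.6 ± 5.85 CPM, 1.09, adjusted p = 0.0032 and 0.0074) were the higher ones. Gnai2, a Gi subunit gene that glia and microglia also express, was lower (51.4 ± 5.90 against 86.5 ± 11.7 CPM, -0.75, adjusted p = 0.002 and 0.018), and lost its call with the block without VP1.6 (-0.63) or VP2.6 (-0.74). Gnao1, the most abundant Go subunit mRNA of neurons, was at 337 ± 28.2 and 358 ± 27.4 CPM and was not called.

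Of the 14 genes of Gs/olf proteins, adenylyl cyclases and protein kinase A, which serve the beta receptors, 2 were higher and 3 lower without the block, and 1 and 1 with it. The shares over all genes were 23.2% higher and 24.8% lower without the block, and 15.4% and 16.8% with it. Adcy5, the main adenylyl cyclase of the striatum, was lower in TRAP at 72.8 ± 18.1 against 148 ± 22.7 CPM (log2 fold change -1.04, adjusted p = 0.0012 and 0.0039). The medium spiny neuron markers moved with it too (5 of 6 lower in both fits), and their part in it was not tested. Adcy1, a calcium-stimulated cyclase, was at 51.6 ± 12.4 against 29.2 ± 10.3 CPM (0.88, adjusted p = 0.026 and 0.039), but without VP2.2 its log2 fold change was 0.45 and the call was lost in both fits, as it was without VP1.6 (0.88) and with the trend on exon length taken out (0.41). Without VP2.6 (0.99) the call was lost in the fraction-only fit. Adcy9 had a log2 fold change of 0.56 and was called without the block alone (adjusted p = 0.024 and 0.12). Of the 6 genes of receptor kinases and arrestins, which switch the receptors off, Arrb2 alone was called in the fraction-only fit, at 0.58 on the log2 scale and an adjusted p of 0.02. The shares over all genes given for the Gs/olf list apply here too. With the block limma called 0 of the 6, of which 0 had an unadjusted p under 0.05, and gave Arrb2 an adjusted p of 0.13. Medians of the lists were between -0.19 and 0.39, except for the 3 other receptors at -1.16, against -0.05 for all genes tested.

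The genes most like each receptor gene were taken as the 3 with the highest Pearson r of log2 CPM over the 8 libraries. For Adra1a these were Ptprf (r = 0.998), a receptor-type tyrosine phosphatase gene, Tdp2 (0.998), a DNA repair gene, and Nkap (0.997). Those most like Adra2c were Prrg2 (0.999), 1600020E01Rik (0.999) and Nupr1 (0.996). The values are a description, because the 8 libraries are 2 fractions of 4 pools and many genes share such a profile, with 980 genes at an r over 0.9 for Adra1a and 1495 for Adra2c. The profiles of the receptors that were not called had fewer like them. Adra1b had 152 such genes, led by Fer (0.992), Scrt2 (0.988) and Zfp382 (0.987). Adra2a had 225, led by Arid3b (0.991), Rwdd4a (0.984) and Arhgap21 (0.982). Adrb1 had 99, led by Pth1r (0.995), Cmtr2 (0.987) and B3galt4 (0.984), and Adora1 had 35, led by Spire2 (0.986), Zgrf1 (0.986) and Tnfsf13b (0.985). No receptor of the set was among the 3 genes most like another.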

How the data were processed

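The authors aligned reads with STAR 2.5.1a to the Ensembl release 76 primary assembly of the mouse (GRCm38), took unique reads for each gene from featureCounts, scaled them with edgeR (TMM) and used limma with quality weights. The values the authors deposited are log2 CPM per gene and library. The same table holds the authors' own comparison, namely log2 fold changes with limits, p-values, and scores (a linear fold change and test statistics), together with a transcript number per gene deposited by the authors, and these columns were not used for any result. Both VP2.11 columns and the INPUT column of VP1.6 hold 3 significant digits.

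Of 14398 entries, 45 repeats were dropped, which left 14353 genes. The 14249 genes with more than 1 CPM in 3 or more libraries were fitted with limma 3.58.1 (lmFit, eBayes with a trend; R 4.3.3), two-sided, with Benjamini-Hochberg adjustment over all of them and an adjusted p under 0.05 as the threshold. The main fit had the fraction alone, and the pool was added as a block beside it. The labels give both libraries of a pool 1 name and the methods take both from 1 homogenate. Across genes, deviations from the fraction means correlated at -0.745 to -0.495 within a pool and at 0.0457 to 0.441 between pools. A negative correlation within a pool makes the unblocked SE and p too small on average.

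Whole reads were recovered in VP2.2 and VP2.6 from within-pool differences of genes below 32 CPM, for 99.8% of 9666 and 99.9% of 9628 genes (tolerance 1e-08 on the log2 scale). Only the ratio of reads is fixed by a difference, for every gene. The number of reads was taken as the multiple of the smallest solution that came nearest the deposited level. Read numbers, counting intervals and shifts rest on this choice, also where the smallest solution itself was kept. Because reads came from differences and not from single libraries, no count test was run. Exact binomial intervals (95%) cover counting error only, as no molecular identifiers are stated. Gene models came from GENCODE M21. The receptor genes and all lists were chosen with earlier results of these data known. Named genes are the receptors, the 3 called genes with the largest change in each other list, Slc17a6 and the 3 genes most alike each receptor. Marker genes, Gnaq, Gnao1 and Adk were added as examples of genes in their lists. A few genes of the lists are not reported here and were left out of their counts and sums.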

Additional observations from a re-analysis of the deposited data

Results flagged for a closer look

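In groups of 4 libraries, 50 gene and fraction combinations were examined for 1 library far from the other 3, 3 were found, and chance alone gives about 2.5. Adra2a in TRAP of VP2.2 was at 3.12 log2 CPM against 1.93 to 2.13 in the other pools. Adra2a in INPUT of VP2.2 was at 1.27 log2 CPM against 2.2 to 2.27. Ddc in INPUT of VP2.11 was at 4.74 log2 CPM against 5.07 to 5.09.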

How the results depend on the processing

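Of 113 values of the 6 receptor genes under alternatives, 90 kept direction and side of the threshold, 18 turned direction (all in genes that were not called), 3 passed the threshold and 2 lost it. Of 359 values of the other named genes, 285 kept both, 74 lost the call and none turned. Library weights gave Adra1b 1.00 and Adra2a -0.01 (also -0.01 with the replicate block), and Adora1 0.0019 with the block. Equal medians gave Adrb1 0.02 and Adora1 0.03, and quantile normalization gave Adra1b 1.43 and Adrb1 0.21. Without a variance trend Adra1b was called at 0.72, and without the exon length trend Adrb1 was at 0.11 in both fits. Without 1 pool and without the block, log2 fold changes were -0.21 to 0.49 for Adra2a, -0.23 to 0.36 for Adrb1 and -0.04 to 0.02 for Adora1. With the block, Adra2c lost its call without VP2.2 (-1.35) or VP2.6 (-1.44), which left 1 of 2 receptor calls, Adra2a was at -0.21 without VP2.2, Adrb1 at 0.36 without VP2.6, and Adora1 at 0.0027 without VP2.11, 0.0072 without VP2.2 and 0.02 without VP2.6.

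Over all genes, 6830 were called without and 4592 with the pool as a block, 4575 of them in both. With the block and without VP1.6, VP2.11, VP2.2 or VP2.6, 3232, 4102, 4156 and 3250 were called, and 3528 of the calls without the block were changes of 1 or more on the log2 scale. In the lists 20 genes were called, against 12 with the block, 13 with the block and the length trend removed, 10 to 24 without 1 pool, and 8, 13 and 9 with the block and without VP1.6, VP2.11 or VP2.6. The longest transcript as length gave Adora1 9.12 (TRAP) and 9.14 (INPUT) and Adra1a 5.12 and 1.75 CPM per kilobase. Why values or calls changed under an alternative was not tested. Adra1b, Adrb3 and Entpd1 have no value at over 1 CPM in all 8 libraries. Depth limits Adra1b, Adra2c and Adrb3, with as few as 11 reads in a library by the read numbers chosen nearest the deposited level.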
